A study of Mus musculus with 12 samples.

Results

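A set of 6 genes of calcium handling and store entry was measured in the mouse heart, of 7 listed: the release channel Ryr2, the store buffer Casq2, the calcium pump Atp2a2, its inhibitor Pln, and the store sensors Stim1 and Stim2. They were chosen by name for their roles, with earlier results of these data known. Each was read on the only probe set that carried its symbol alone, so that they make 6 of the 26989 genes tested. The sodium-calcium exchanger Slc8a1 was on the list and was not analysed here. The 12 heart samples, each on its own array, were from male C57BL/6J mice with a stated age of 10 weeks, and were taken 2 weeks after surgery. The groups were Adam12 knockout hearts after transverse aortic constriction (TAC), Adam12 knockout hearts after sham operation, wild type hearts after TAC and wild type hearts after sham operation, with 3 hearts each. TAC narrows the aortic arch and loads the left ventricle with pressure. ADAM12 is a membrane-anchored metalloprotease, and how the knockout was made was not given in the sources used here. Only the 2 genotypes and the 2 operations differ between groups in the labels, which call the replicates biological and do not say whether hearts were pooled. A sample is called a heart from here on.

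In a heart muscle cell each beat begins with calcium entry from outside, which opens ryanodine receptors on the sarcoplasmic reticulum and releases stored calcium. The pump SERCA2 then returns calcium to the store, phospholamban holds the pump back until it is phosphorylated, and calsequestrin binds calcium inside the store. STIM proteins sense the filling of the store and open ORAI channels of the cell surface when it empties, a route that is prominent in cells without a fast release system and is studied in heart muscle under load. Loss of pump and release channel transcripts is a known feature of the failing heart.

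After TAC one store sensor, Stim2, rose and the release channel Ryr2 fell, while Casq2, Atp2a2 and Stim1 were not called. Stim2 rose in both genotypes, to 1.65-fold in knockout and 1.36-fold in wild type hearts. The wild type call was lost in 16 of 23 alternative settings. Ryr2 was lower by 28.3% in knockout hearts (fold 0.717), a call, and differed by -0.36 on the log2 scale in wild type hearts, which was not a call. Pln fell in knockout hearts (fold 0.81), a call lost in 6 of 23 alternative settings. No member was called between the genotypes.

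The sequences around the annotated starts of the 3 genes that were called are shown so that the starts of a gene that rose and of others that fell can be read side by side. They come from RefSeq on build GRCm38.p6, each 300 bases running along the gene from 250 before its start to 50 after it, and 6 of the 7 listed genes had an entry. Stim2 lies on chromosome 5 and its window is chr5:53998273-53998572 on the plus strand. Ryr2 lies on chromosome 13 with its window at chr13:12106896-12107195 on the minus strand. Pln lies on chromosome 10 with its window at chr10:53337436-53337735 on the plus strand. Capitals mark matches, on either strand, to the GC box GGGCGG, the core GGAAA bound by NFAT factors, the TATA box TATAAA and the MCAT element CATTCC.
Stim2: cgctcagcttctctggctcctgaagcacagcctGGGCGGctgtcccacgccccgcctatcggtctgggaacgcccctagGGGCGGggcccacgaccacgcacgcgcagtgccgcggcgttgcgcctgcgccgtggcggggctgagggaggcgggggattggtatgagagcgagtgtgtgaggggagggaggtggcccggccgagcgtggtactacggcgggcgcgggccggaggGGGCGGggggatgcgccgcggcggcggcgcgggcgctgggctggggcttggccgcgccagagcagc
Ryr2: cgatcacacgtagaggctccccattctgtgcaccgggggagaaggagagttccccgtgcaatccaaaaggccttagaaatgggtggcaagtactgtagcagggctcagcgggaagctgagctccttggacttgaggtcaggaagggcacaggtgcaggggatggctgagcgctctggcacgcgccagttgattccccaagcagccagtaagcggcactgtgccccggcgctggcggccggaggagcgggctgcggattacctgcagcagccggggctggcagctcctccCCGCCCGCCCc
Pln: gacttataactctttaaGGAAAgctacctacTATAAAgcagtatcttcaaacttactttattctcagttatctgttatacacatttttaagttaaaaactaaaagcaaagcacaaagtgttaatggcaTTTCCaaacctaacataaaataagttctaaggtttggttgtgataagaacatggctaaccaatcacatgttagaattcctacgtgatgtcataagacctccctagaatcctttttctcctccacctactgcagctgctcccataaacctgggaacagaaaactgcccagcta
The Stim2 window was 76.7% G or C and held 3 GC boxes. The Ryr2 window was 65.3% G or C and held 2 GC boxes after the start, which overlap each other. The Pln window was 36.0% G or C and held 2 NFAT cores and 1 TATA box, whose first base is at position -219 from the start. The median over all promoters was 52.7% G or C. Of 32851 promoters of this length, 35.7% held the GC box, 61.3% the NFAT core, 13.6% the TATA box and 14.7% the MCAT element. A match is a run of letters, not a site shown to be used.

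The arrays were alike in signal, with medians from 4.93 to 5.10 on the log2 scale over all probe sets other than controls. The probe set of Adam12, dim and shared with 5830403F22Rik, read 4.25 to 4.4 on knockout arrays and 4.46 to 4.80 on wild type arrays. Summed signals of 11 heart muscle markers, such as Myh6 and Tnnt2, were near level (log2 of the sum). They were 21.12 to 21.21 in knockout TAC and 21.15 to 21.17 in knockout sham hearts. In wild type hearts they were 21.14 to 21.18 after TAC and 21.12 to 21.17 after sham. The brightest genes weigh most in such a sum, and single markers of this list differed by -0.58 to 0.48 for TAC in the knockout. Fibroblast markers, 9 genes such as Col1a1 and Dcn, summed to 17.83 to 18.15 in knockout TAC, 16.55 to 16.79 in knockout sham, 16.64 to 17.68 in wild type TAC and 16.69 to 16.88 in wild type sham hearts. After TAC in the knockout 7 of these 9 rose, as did 5 of 6 macrophage markers and 2 of 7 endothelial markers. Of 11 heart muscle markers 1 rose and 1 fell, where 7.08% of all genes rose and 5.68% fell. No marker of these 4 lists was called in wild type hearts, where 0.178% of all genes were. Differences there were above 0 for 8 of 9 fibroblast, 5 of 6 macrophage, 6 of 7 endothelial and 6 of 11 heart muscle markers. Their medians were 0.89, 0.41, 0.22 and 0.01, beside 0.02 over all genes. In whole heart RNA, fewer cells of a type and less RNA per cell cannot be told apart.

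Ryr2 encodes the channel through which stored calcium leaves the sarcoplasmic reticulum. Its log2 signals were 16.99, 16.87 and 16.98 in knockout TAC hearts, against 17.39, 17.49 and 17.40 in knockout sham hearts. They were 17.01, 16.85 and 17.06 in wild type TAC hearts, against 17.34, 17.28 and 17.39 in wild type sham hearts. All 6 TAC hearts lay below all 6 sham hearts, and the genotypes overlapped or touched after each operation. TAC and sham hearts did not overlap for 5 of the 6 members in the knockout, all but Stim1, against 32.3% of all genes. The same held for Ryr2 and Stim2 in wild type hearts, 2 of 6, against 16.1% of all genes. In order of level the knockout sham mean was 17.43 ± 0.06, the wild type sham mean 17.34 ± 0.05, the wild type TAC mean 16.97 ± 0.11 and the knockout TAC mean 16.95 ± 0.06 (SD, n = 3 each), so that operations were set apart and genotypes were not.

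Ryr2 fell by 0.48 ± 0.08 (SE) in knockout hearts after TAC by limma (adjusted p = 0.00176, 95% confidence interval -0.64 to -0.31). In this comparison 3 of the 6 members were called, where 12.8% of all genes were. As the members were chosen with earlier results of these data known, such shares are set side by side and are not a test. The Ryr2 difference in wild type hearts was -0.36 ± 0.08 (95% confidence interval -0.53 to -0.20) at adjusted p = 0.0832, which did not pass. Averaged over genotypes it was -0.42 ± 0.05 at adjusted p = 0.000502, lower in 6 of 6 TAC hearts, and the exact permutation p was 0.005, the smallest that 400 assignments allow. The averaged comparison called 2 of 6 members, Stim2 higher and Ryr2 lower, against 13.6% of all genes (7.49% higher and 6.12% lower). The knockout call held under all 23 alternatives run. Among wild type TAC hearts, the one with the lowest Ryr2 (16.85, replicate 2) had the highest fibroblast sum (17.68). The one with the highest Ryr2 (17.06, replicate 3) had the lowest sum (16.64). Knockout TAC hearts did not share this order, as replicate 1 had both the highest Ryr2 (16.99) and the highest fibroblast sum (18.15). The part of fibroblasts in the Ryr2 difference was not tested. With every array scaled to its heart muscle markers Ryr2 remained called in the knockout. This scaling moved the difference little, from -0.479 to -0.473, and cannot show the part of other cells.

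Casq2 encodes the calcium-binding protein that buffers calcium inside the store next to the release channel. Its signals were 16.91, 16.90 and 17.06 in knockout TAC hearts, against 16.88, 16.77 and 16.62 in knockout sham hearts. The wild type signals were 16.77, 16.87 and 16.85 after TAC, against 16.84, 16.88 and 16.56 after sham. The knockout groups were just apart, at 16.90 and 16.88 for the nearest hearts, while the wild type groups overlapped. Casq2 differed by 0.20 ± 0.10 in knockout hearts (95% confidence interval -0.02 to 0.42, adjusted p = 0.255) and by 0.07 ± 0.10 in wild type hearts (adjusted p = 0.841), neither a call by limma. The knockout TAC mean of 16.96 ± 0.09 was the highest, and the wild type TAC mean of 16.83 ± 0.06 and the sham means of 16.76 ± 0.13 in knockout and 16.76 ± 0.18 in wild type followed within the spread (SD, n = 3 each).

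Set against its store buffer in the same hearts, the release channel was lower after TAC. The within-array log2 ratio of Ryr2 to Casq2 was -0.09 to 0.08 in knockout TAC hearts, against 0.51 to 0.78 in knockout sham hearts. It was -0.02 to 0.24 in wild type TAC hearts, against 0.40 to 0.83 in wild type sham hearts. The TAC range lay below the sham range in each genotype. The level of such a ratio has no meaning of its own, because the probes differ, and only its shift between groups is read.

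**Figure D1:**
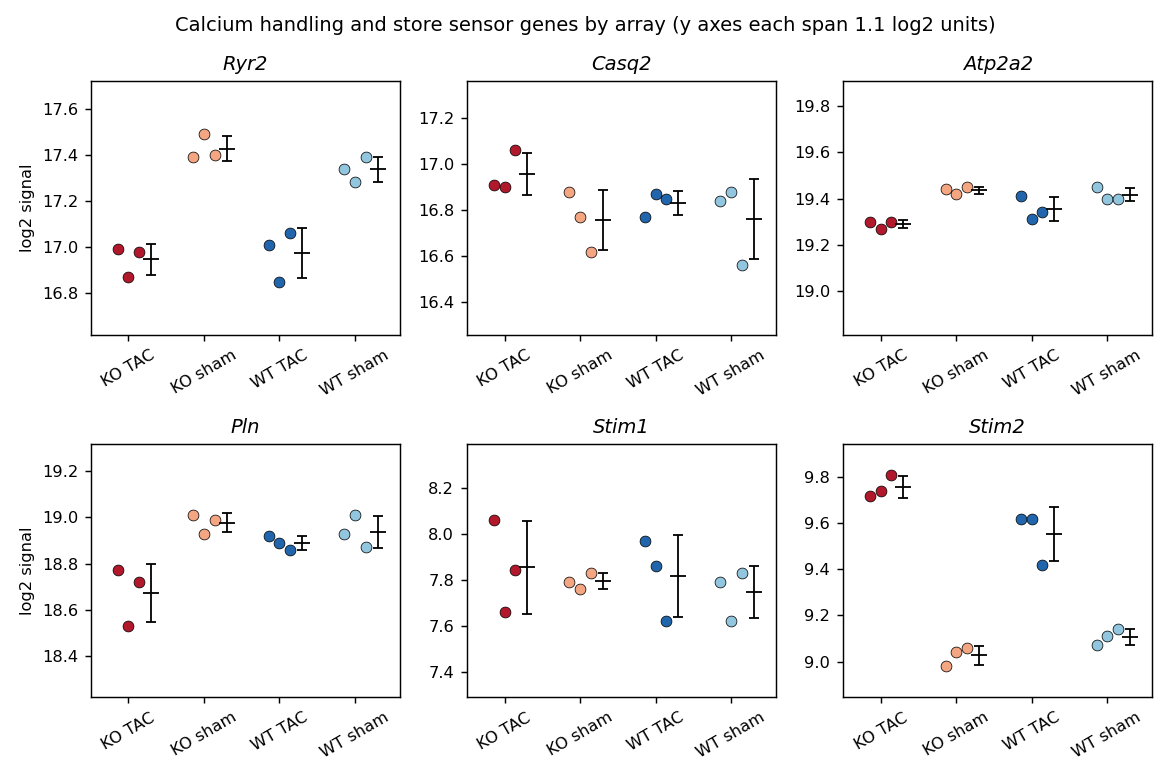
Log2 signal of the 6 measured members on each array (points) in knockout (KO) and wild type (WT) hearts after TAC or sham, with the mean and SD of 3 hearts beside each group. Each panel spans the same height on the y axis, so that the separation of Stim2 and Ryr2 by operation can be set against the smaller shifts of the other members.

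Atp2a2 encodes SERCA2, the pump that refills the store, and the probe set does not tell its isoforms apart here. Its signals were 19.30, 19.27 and 19.30 in knockout TAC hearts, against 19.44, 19.42 and 19.45 in knockout sham hearts. Wild type hearts read 19.41, 19.31 and 19.34 after TAC, against 19.45, 19.40 and 19.40 after sham. The knockout groups were apart and the wild type groups overlapped through TAC replicate 1. The difference was -0.15 ± 0.06 in knockout hearts (adjusted p = 0.137, 95% confidence interval -0.28 to -0.02) and -0.06 ± 0.06 in wild type hearts (adjusted p = 0.722), neither a call by limma. Averaged over genotypes it was -0.11 ± 0.04 at adjusted p = 0.132, with an exact permutation p of 0.015 over 400 assignments, unadjusted.

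These Atp2a2 values stood close to the highest value of the whole table, 19.93. Genes at that height varied little: the median SD within groups was 0.027 over the 30 genes with a mean above 19, against 0.119 over the 177 genes between 16 and 18 and 0.139 over all genes. The spread of Atp2a2 itself was 0.03, and the moderated error of limma was larger than that spread alone would give. Whether the scale is compressed near its top was not tested.

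Pln encodes phospholamban, the small membrane protein that restrains the pump. Its signals were 18.77, 18.53 and 18.72 in knockout TAC hearts, against 19.01, 18.93 and 18.99 in knockout sham hearts. The wild type values were 18.92, 18.89 and 18.86 after TAC, against 18.93, 19.01 and 18.87 after sham. All 3 knockout TAC hearts lay below the other 9 hearts, which were not separated from one another. Pln fell by 0.30 ± 0.08 in knockout hearts (limma adjusted p = 0.0221) and differed by -0.05 ± 0.08 in wild type hearts (adjusted p = 0.859, 95% confidence interval -0.21 to 0.12). The direction in wild type hearts turned under quantile normalization, to 0.086. The knockout call was lost in 6 of 23 alternatives, among them quantile normalization (adjusted p = 0.0542) and the omission of knockout TAC replicate 2, the lowest heart, which left -0.23 at adjusted p = 0.0932.

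Pump and inhibitor differed in the same direction in the knockout, with the larger value for Pln and no call for Atp2a2. Atp2a2 lies nearer the top of the scale, where compression was not tested. The within-array log2 ratio of Atp2a2 to Pln was 0.53, 0.74 and 0.57 in knockout TAC hearts, against 0.43 to 0.49 in knockout sham hearts. The value of 0.74 came from replicate 2, the heart with the lowest Pln. The wild type ratio was 0.43 to 0.49 after TAC, against 0.39 to 0.53 after sham, where the groups overlapped.

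Stim1 and Stim2 encode the sensors that report an empty store to ORAI channels. Stim2 is known from cultured cells as the more sensitive to small losses of stored calcium. Stim1 signals were 8.06, 7.66 and 7.84 in knockout TAC hearts, against 7.79, 7.76 and 7.83 in knockout sham hearts. Wild type hearts read 7.97, 7.86 and 7.62 after TAC, against 7.79, 7.62 and 7.83 after sham. The groups overlapped in each genotype. The difference was 0.06 ± 0.11 in knockout hearts (95% confidence interval -0.19 to 0.31, adjusted p = 0.813) and 0.07 ± 0.11 in wild type hearts (95% confidence interval -0.18 to 0.33, adjusted p = 0.852) by limma, so that changes in either direction within those bounds could not be told from none.

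Stim2 signals were 9.72, 9.74 and 9.81 in knockout TAC hearts, against 8.98, 9.04 and 9.06 in knockout sham hearts. The wild type signals were 9.62, 9.62 and 9.42 after TAC, against 9.07, 9.11 and 9.14 after sham. No neighbouring groups overlapped in the order of levels, which ran from knockout TAC (9.75 ± 0.05) through wild type TAC (9.55 ± 0.12) and wild type sham (9.11 ± 0.03) to knockout sham (9.03 ± 0.04; SD, n = 3 each). Stim2 rose by 0.73 ± 0.07 in knockout hearts (adjusted p = 0.000389, 95% confidence interval 0.57 to 0.89). It ranked 38th among all genes by p in that comparison.

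Stim2 rose in wild type hearts by 0.45 ± 0.07 by limma (adjusted p = 0.0398, 95% confidence interval 0.29 to 0.61) and was the only member called, 1 of 6, where 0.178% of all genes were. That call was fragile while the size was not. It was lost in 16 of 23 alternatives, at adjusted p from 0.0524 to 0.236, with differences from 0.41 to 0.51 over all 23. The omission of any array other than wild type TAC replicate 3 ended the call. Averaged over genotypes the rise was 0.59 ± 0.05 (adjusted p = 0.000214), 14th of all genes by p and higher in 6 of 6 TAC hearts, with an exact permutation p of 0.005, the smallest possible.

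Set against Stim1 in the same hearts, Stim2 was higher after TAC. The within-array log2 ratio of Stim2 to Stim1 was 1.66 to 2.07 in knockout TAC hearts, against 1.19 to 1.29 in knockout sham hearts. It was 1.64 to 1.80 in wild type TAC hearts, against 1.29 to 1.49 in wild type sham hearts. TAC and sham ranges were apart in both genotypes.

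**Figure D2:**
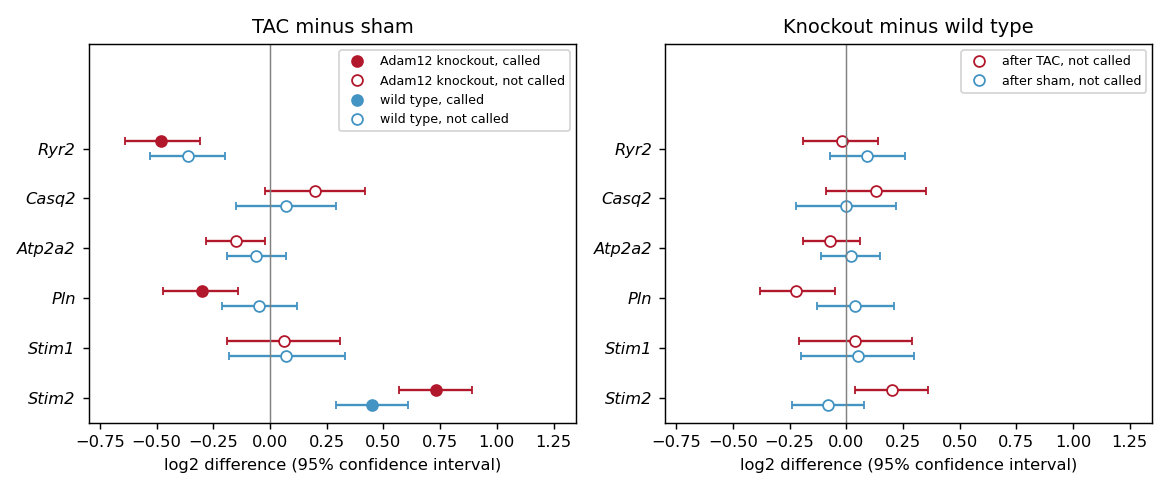
Log2 differences of the 6 members with 95% confidence intervals from limma, for TAC minus sham in each genotype (left) and for knockout minus wild type after each operation (right). Filled points passed at an adjusted p under 0.05: Stim2 in both genotypes, and Ryr2 and Pln in the knockout.

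After TAC no member passed between knockout and wild type hearts, 0 of 6, where 0.0111% of all genes were called and 3928 of 26989 had an unadjusted p under 0.05. The Stim2 difference was 0.20 ± 0.07 (adjusted p = 0.224) and the Pln difference -0.22 ± 0.08 (adjusted p = 0.215), both with groups that did not overlap, as was so for 19.2% of all genes. Atp2a2 (-0.07 ± 0.06) and Casq2 (0.13 ± 0.10) had groups apart as well, by small steps. Ryr2 was at -0.02 ± 0.08, with a 95% confidence interval of -0.19 to 0.14, and its sign turned in 4 alternatives.

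After sham 0 of 6 members passed, against 0% of all genes, with 1495 genes at an unadjusted p under 0.05. Stim2 was the only member whose groups did not overlap, at -0.08 ± 0.07, and 12.3% of all genes did not overlap there. The differences of Ryr2 (0.09 ± 0.08), Pln (0.04 ± 0.08), Stim1 (0.05 ± 0.11) and Atp2a2 (0.02 ± 0.06) lay within their errors or near them.

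The interaction asks whether TAC acted differently in the genotypes, and 0 of 6 members passed by limma, against 0% of all genes and 2963 at an unadjusted p under 0.05. The TAC difference of Stim2 was larger in the knockout by 0.28 ± 0.10 (adjusted p = 0.352), that of Pln differed by -0.26 ± 0.11 (adjusted p = 0.417) and that of Atp2a2 by -0.09 ± 0.08 (adjusted p = 0.732). When genotype labels were exchanged within each operation, the exact permutation p over 400 assignments was 0.005 for Stim2, 0.02 for Pln and 0.03 for Atp2a2, unadjusted over the 6 members tested. It was 0.195 for Ryr2, 0.345 for Casq2 and 0.945 for Stim1. These values assume no genotype effect after either operation, and the limma test over all genes did not call them.

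The other calcium genes were read in 6 lists with 111 entries, of which 86 were measured. Another 3 lay on probe sets that carry several symbols, and 22 were not analysed here. In knockout hearts TAC raised 7 and lowered 15 of the 86, where 7.08% of all genes rose and 5.68% fell. The median difference was -0.09, beside -0.03 over all genes. Wild type hearts had 0 genes that rose and 1 that fell, where 0.0667% of all genes rose and 0.111% fell.

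The release unit comprises the proteins that surround the ryanodine receptor and couple it to the surface membrane. Of 19 measured members 7 fell and 2 rose in the knockout, with a median of -0.11, and 0 were called in wild type hearts, with a median of -0.09. Hrc, a calcium-binding protein of the store, fell to 13.19 ± 0.13 in knockout TAC hearts, against 14.23 ± 0.16 in knockout sham hearts (SD, n = 3 each), a change of -1.04 ± 0.12. Jph1, a junctophilin that ties the surface membrane to the store, fell by 0.91 ± 0.11 (limma adjusted p = 0.000468). Trdn, which anchors calsequestrin to the release channel, fell by 0.58 ± 0.10, and the chaperone Canx fell by 0.24 ± 0.07. The wild type differences were -0.32 for Hrc, -0.38 for Jph1, -0.24 for Trdn and -0.26 for Canx, none a call.

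Among 13 measured regulators of the pump 1 rose and 2 fell in the knockout, and 0 rose and 1 fell in wild type hearts. Pde3a, a phosphodiesterase that breaks down cyclic AMP, fell by 0.77 ± 0.10 in knockout hearts (adjusted p = 0.000703) and by 0.69 ± 0.10 in wild type hearts (adjusted p = 0.0356), the only gene of the 6 lists called in wild type hearts. The catalytic subunit of protein kinase A, Prkaca, fell by 0.40 ± 0.09 and its regulatory subunit Prkar1a rose by 0.71 ± 0.14 in knockout hearts by limma. Protein kinase A phosphorylates phospholamban and so releases the pump. Prkaca differed by -0.31 and Prkar1a by 0.38 in wild type hearts, neither a call, and Hax1, which binds phospholamban, was called only in the average, at 0.23.

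Of 13 genes of surface entry and export 0 rose and 1 fell in the knockout and 0 passed in wild type hearts. Cacna2d1, an auxiliary subunit of the L-type calcium channel, fell by 0.40 ± 0.09 in knockout hearts. The pore subunit Cacna1c differed by -0.37 ± 0.12 (adjusted p = 0.0754), Cacnb2, another auxiliary subunit, by -0.60 ± 0.19 (adjusted p = 0.0584) and the surface pump Atp2b1 by 0.19 ± 0.07 (adjusted p = 0.107), none a call by limma.

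Of 18 store entry partners 3 rose and 0 fell in the knockout, and 0 passed in wild type hearts. Esyt1, a tether between endoplasmic reticulum and surface membrane, rose by 0.73 ± 0.08, the scaffold Homer3 by 0.33 ± 0.07 and the cation channel Trpc6 by 0.38 ± 0.11 (limma adjusted p = 0.0491). Trpm4, a cation channel opened by calcium, differed by -0.25 ± 0.08 in the knockout (adjusted p = 0.0676) and was called lower only in the average, at -0.28. The ORAI channels, named after their values were seen, were not called: in the knockout Orai1 differed by -0.09, Orai2 by 0.03 and Orai3 by -0.22, and in wild type hearts by -0.05, 0.11 and -0.17. Esyt1 stood at 8.29 ± 0.09 in knockout TAC hearts, against 7.56 ± 0.06 in knockout sham hearts, and at 7.77 ± 0.12 in wild type TAC hearts, against 7.5 ± 0.09 in wild type sham hearts (SD, n = 3 each).

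Of 15 calcium-sensing kinases, phosphatases and their targets 1 rose and 2 fell in the knockout. The kinase Camkk2 rose by 0.65 ± 0.08 and the transcription factor Mef2d fell by 0.51 ± 0.09, while Camk2g (-0.29 ± 0.11) and Nfatc4 (0.16 ± 0.09) did not pass. Of 8 mitochondrial calcium genes 0 rose and 3 fell. The outer membrane channel Vdac1 fell by 0.39 ± 0.08, Letm1 by 0.28 ± 0.07 and Mcur1, a regulator of the calcium uniporter, by 0.45 ± 0.11, and Micu2, another regulator, was at 0.37 ± 0.11 (adjusted p = 0.0502). Neither list had a call in wild type hearts, and no gene of the 6 lists was called between genotypes or in the interaction. As with the members, fibroblast and macrophage markers rose on the same knockout TAC arrays, and their part in these counts was not tested.

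**Figure D3:**
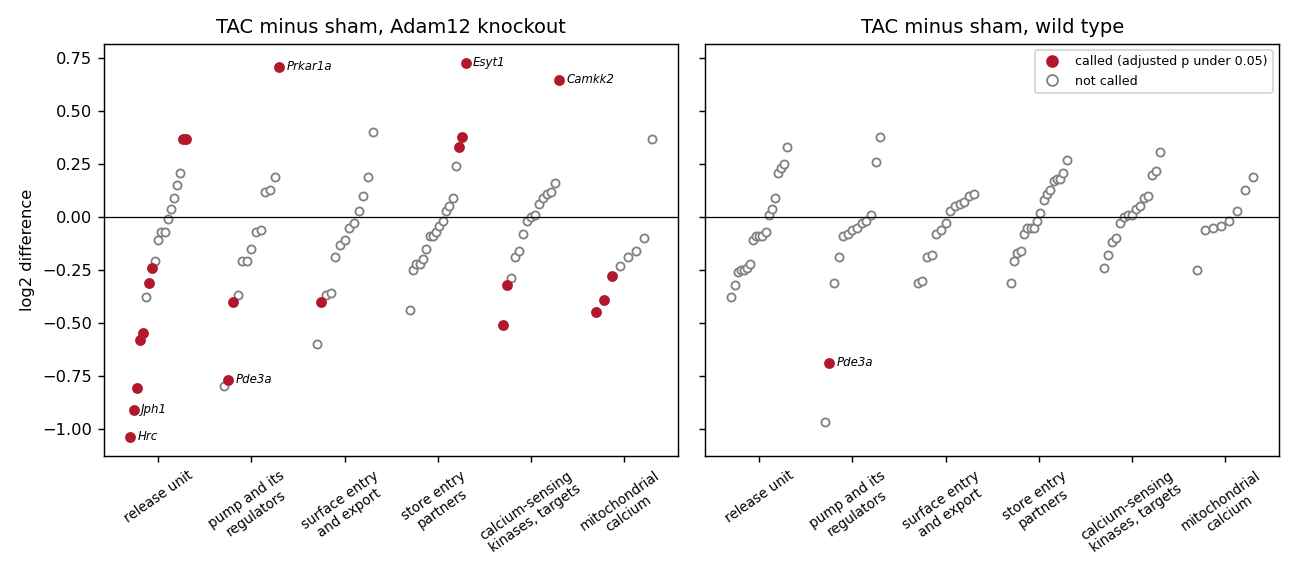
Log2 difference between TAC and sham of each measured gene of the 6 calcium lists, in knockout (left) and wild type hearts (right), sorted within a list. Filled points passed at an adjusted p under 0.05, and in the knockout most filled points of the release unit lie below 0 while all 3 of the store entry partners lie above it.

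Over the 12 arrays Ryr2 and Stim2 ran opposite to each other, with r = -0.94 over all arrays and -0.32 once each group's mean was removed, so that the relation was mostly one between groups. Atp2a2 followed Ryr2 (r = 0.86) and Pln (r = 0.85) over all arrays, with 0.35 and 0.40 within groups. These correlations are descriptions over arrays that share the 4 groups.

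**Figure D4:**
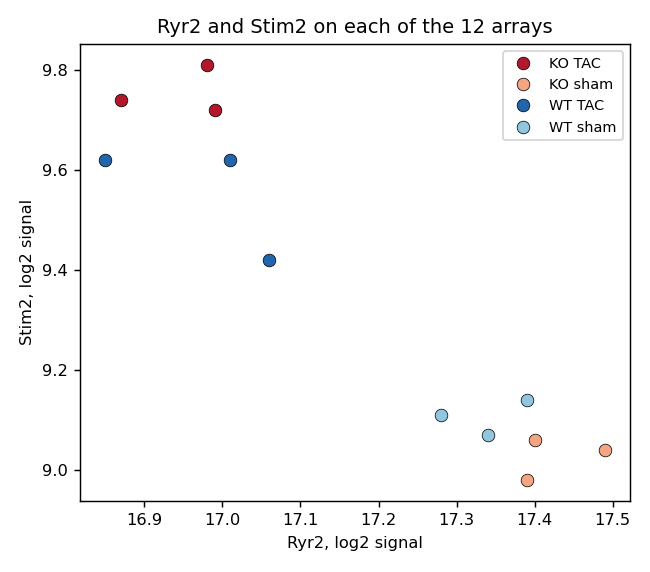
Log2 signal of Ryr2 (x axis) and Stim2 (y axis) on each of the 12 arrays, coloured by group (KO, knockout; WT, wild type). The 6 TAC hearts lie at the upper left, with Stim2 from 9.42 to 9.81, and the 6 sham hearts at the lower right, with Stim2 from 8.98 to 9.14.

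The genes most like each member were taken by Pearson correlation over the 12 arrays among genes above the median level. For Ryr2 they were Slc27a1 (0.983), Mylip (0.981) and Corin (0.974). For Atp2a2 they were Gstk1 (0.98), Dcaf4 (0.979) and Ndufs7 (0.978), and for Pln Plekhj1 (0.957), Asb10 (0.954) and Thap4 (0.954). For Stim2 they were Sparcl1 (0.983), Lima1 (0.977) and Phtf1 (0.976). Casq2 and Stim1 had no pattern as close: the nearest were Ykt6 (0.906), Frem2 (0.883) and Ndrg4 (0.863) for Casq2, and Sin3b (0.895), Rnf215 (0.891) and Rtfdc1 (0.884) for Stim1. The nearest genes of Ryr2, Atp2a2 and Pln were all lower after TAC in the average, by 0.30 to 1.24, and those of Stim2 were higher, by 0.35 to 0.70. These directions follow from picking genes by their likeness over the same arrays, and are not a further result.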

How the data were processed

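Total RNA of each heart sample (250 ng) was made into biotin-labelled target for Affymetrix arrays, per the labels' protocols, and the probe set names are of the form used on the Clariom D mouse design. The deposited values are log2 signals per probe set, which the authors made with Affymetrix Expression Console, per the submitters' processing notes; the normalization method was not given in the sources used here, and the log2 scale was read from the values (1.27 to 19.93). Signal is relative, the number of arrays limits the precision, and no read depth applies.

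Control probe sets (6732) were left out, and of the other 58795, 27268 carried 1 symbol in the platform annotation, 1932 several and 29595 none. Each gene was taken as its brightest probe set with 1 symbol. The tests used limma (version 3.58.1, R version 4.3.3), fitting a mean for each group to all 12 arrays, 2-sided, with Benjamini-Hochberg adjustment over 26989 genes and a call at an adjusted p under 0.05. Errors of differences are SE and errors of levels are SD over 3 hearts. With 3 hearts against 3, an exact permutation test cannot go below 0.1. The limma p-values weigh each difference against the spread between these hearts, moderated over all genes.

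The members, the lists and the tests were chosen with earlier results of these data known. Named genes were all members, the 4 genes of each list with the smallest p for TAC averaged over genotypes, and the 3 genes most like each member. On simulated data for TAC in the knockout, over 26989 genes, the fit recovered 31 of 50 genes changed by 1.5-fold, 48 of 50 by 2-fold, and all 50 by 4-fold and by 8-fold, with 6 unchanged genes called. Alternatives in normalization, filtering, probe sets, variance, covariates and arrays left out are reported at the end.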

Additional observations from a re-analysis of the deposited data

Results flagged for a closer look

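The Stim2 difference between genotypes ran in opposite directions after the operations, with no overlap of hearts in either. Of all genes, 19.2% had no overlap after TAC and 12.3% after sham, and the share with none in both was not counted. After TAC the knockout hearts read 9.72 to 9.81, against 9.42 to 9.62 in wild type hearts. After sham they read 8.98 to 9.06, against 9.07 to 9.14 in wild type hearts. The genotype difference after TAC minus that after sham was 0.28 ± 0.10. The test of this difference by limma did not pass (adjusted p = 0.352, from 0.254 to 0.543 over the alternatives run). The exact permutation p was 0.005, unadjusted and the smallest that 400 assignments allow. That p assumes no genotype effect after either operation, so a difference after TAC alone could also make it small. Groups of 3 hearts are too small for a check of single outlying hearts.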

How the results depend on the processing

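In knockout hearts 3 members were called after TAC, and 2 or 3 under every alternative run; Ryr2 and Stim2 kept their calls in all 23 and Pln in 17. Averaged over genotypes 2 were called, and 2 or 3 without single arrays. In that average 4 had an unadjusted exact permutation p under 0.05, a p computed for the members only. By limma, 6624 of 26989 genes had an unadjusted p under 0.05 in the average. For the interaction 0 were called and 3 had such a permutation p, where 2963 of 26989 genes had an unadjusted limma p under 0.05. In wild type hearts the count of 1 became 0 with arrays centred on their median, scaled to heart muscle markers, with all probe sets tested, with only the groups compared or with Myl7 as a covariate, 2 with array weights, and 0 to 2 without single arrays. Ryr2 passed there with array weights (-0.40) and without wild type TAC replicate 3 (-0.41). Differences near 0 changed sign. Pln in wild type hearts became 0.086 after quantile normalization. Casq2 after sham became 0.040 after quantile normalization and 0.005 with centring. Ryr2 after TAC became 0.009 with centring and 0.027 with array weights, Stim1 after TAC -0.001 with array weights, the Stim1 interaction 0.010 with centring and 0.028 with heart muscle scaling, and Atp2a2 after sham -0.010 with heart muscle scaling. Without single arrays, Stim1 ran from -0.041 to 0.156 for TAC in the knockout, -0.005 to 0.174 for TAC in wild type, -0.064 to 0.133 between genotypes after TAC, -0.012 to 0.092 after sham and -0.114 to 0.083 for the interaction. Casq2 ran from -0.106 to 0.063 between genotypes after sham and -0.033 to 0.128 for TAC in wild type, and Ryr2 from -0.086 to 0.019 between genotypes after TAC. The causes were not tested.

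With the replicate number as a block the members called were 3 in the knockout, 1 in wild type and 2 in the average, the same counts as without it; genes called went to 3868 in the knockout (3444 without), 266 in wild type (48) and 575 between genotypes after TAC (3). The labels give no basis for pairing, so the block was not used. Deviations from the group means correlated by -0.07 to 0.31 between arrays of the same number (median 0.12). Between different numbers they correlated by -0.27 to 0.20 (median -0.06). These ranges are tied to each other, because deviations from a group mean cancel within the group. Of 12 arrays 9 correlated best with their own number, a hint from the data that arrays of a number may share something. Over all alternatives the genes called ran from 2098 to 4440 for TAC in the knockout, 0 to 352 in wild type, 2754 to 4511 averaged, 0 to 774 between genotypes after TAC, 0 to 1 after sham and 0 to 151 for the interaction.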

Other observations

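Sln, which encodes sarcolipin, a pump inhibitor of the atria, spread more over hearts than any of the 6 members, and was chosen after its values were seen. It averaged 12.98 ± 1.64 in knockout TAC hearts and 13.78 ± 2.14 in knockout sham hearts, and 11.96 ± 1.1 in wild type TAC hearts and 12.93 ± 1.55 in wild type sham hearts (SD, n = 3 each). Myl7, the atrial myosin light chain, had a like spread, at 12.63 ± 1.42 and 13.79 ± 1.89 in knockout TAC and sham hearts and 11.62 ± 0.76 and 12.82 ± 1.60 in wild type TAC and sham hearts. None of the 7 atrial markers was called for TAC in either genotype. With Myl7 as a covariate Ryr2 and Stim2 kept their calls in the knockout.

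The lowest Casq2 signal of each sham group was that of replicate 3, at 16.62 in the knockout and 16.56 in the wild type, picked out after the values were seen.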
